A study of Mus musculus with 4 samples.

Results

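Interferon-stimulated genes are the genes that cells switch on when interferon binds its receptor, and 39 of them were followed here, together with the chemokines Cxcl9 and Cxcl10, which are counted among the 39. The genes were chosen by name, as known interferon targets, with earlier results of these data known. Of the 39 listed genes, 37 were among the 32285 genes counted in the files. Mx1 and Mx2, which encode dynamin-like antiviral GTPases, were not counted, so nothing is said of their level.

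Single-cell RNA libraries were made from lung and synovium, the lining tissue of joints, of mice with and without a human TNF transgene (hTNFtg, here TNF+), a model in which chronic TNF causes arthritis and lung disease. TNF- animals were littermates lacking the transgene. All mice were female C57BL/6 of 4 months, and cells of 3 to 5 mice per genotype were pooled for lung and of 5 to 10 mice for synovium, which gave 1 library for each genotype and tissue and therefore no replicates. Values below are unique molecular identifiers (UMIs, counted RNA molecules) scaled to the total UMIs of the same cells and given as CPM, ratios are TNF+ over TNF- on the log2 scale, and brackets hold 95% intervals that cover counting error only. With 1 library a genotype, no test of genotype was possible and a difference between mice cannot be told apart from one between genotypes.

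Interferons come in classes with separate receptors. Type I interferons act through Ifnar1 and Ifnar2, and a complex that holds Stat2 and Irf9 then binds the interferon-stimulated response element (ISRE). Type II interferon, interferon-gamma, acts through Ifngr1 and Ifngr2 and leads to binding at the gamma-activated site (GAS). TNF signals through NF-kB, which binds kB sites and can also raise Irf1 and some chemokine genes. The products include antiviral effectors, GTPases that attack vacuoles of intracellular pathogens, immunoproteasome subunits that cut peptides for display on MHC class I, and CXCR3 ligands that draw activated T cells and NK cells.

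Promoters of 5 genes that recur in the results show these sites; 250 bases before the start are given 5′ to 3′ on the gene's own strand from RefSeq (GRCm38.p6), with matches to the ISRE, GAS or kB pattern in capitals. They were picked to show an ISRE-rich promoter (Isg15 and Ifit1), a GAS beside an ISRE (Igtp), a GAS with a kB site (Irf1), and an ISRE with kB sites (Cxcl10).
Isg15, chr4:156200819-156201068, minus strand: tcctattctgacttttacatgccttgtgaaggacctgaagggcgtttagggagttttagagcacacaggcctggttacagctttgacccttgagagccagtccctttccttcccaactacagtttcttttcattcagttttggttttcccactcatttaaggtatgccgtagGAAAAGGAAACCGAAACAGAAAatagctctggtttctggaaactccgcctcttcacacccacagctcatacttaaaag
Ifit1, chr19:34640639-34640888, plus strand: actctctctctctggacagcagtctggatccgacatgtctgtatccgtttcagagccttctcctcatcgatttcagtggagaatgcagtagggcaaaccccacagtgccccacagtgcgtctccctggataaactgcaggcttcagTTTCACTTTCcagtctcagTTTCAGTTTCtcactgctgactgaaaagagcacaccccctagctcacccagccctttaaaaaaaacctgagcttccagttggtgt
Igtp, chr11:58199306-58199555, plus strand: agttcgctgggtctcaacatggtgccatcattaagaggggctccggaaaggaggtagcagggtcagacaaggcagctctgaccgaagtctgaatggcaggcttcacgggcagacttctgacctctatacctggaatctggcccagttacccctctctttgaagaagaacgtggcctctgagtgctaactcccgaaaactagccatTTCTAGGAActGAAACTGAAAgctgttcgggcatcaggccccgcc
Irf1, chr11:53769764-53770013, plus strand: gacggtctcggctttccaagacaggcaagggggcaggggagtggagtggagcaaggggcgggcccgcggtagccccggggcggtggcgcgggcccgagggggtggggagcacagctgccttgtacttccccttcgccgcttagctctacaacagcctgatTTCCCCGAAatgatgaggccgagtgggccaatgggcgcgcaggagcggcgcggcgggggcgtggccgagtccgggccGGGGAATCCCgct
Cxcl10, chr5:92348890-92349139, minus strand: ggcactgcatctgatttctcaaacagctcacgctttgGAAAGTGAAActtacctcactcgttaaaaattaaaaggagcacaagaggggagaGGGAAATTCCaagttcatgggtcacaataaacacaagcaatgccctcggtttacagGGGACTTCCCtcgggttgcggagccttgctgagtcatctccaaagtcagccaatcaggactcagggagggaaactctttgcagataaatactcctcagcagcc

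The ISRE was searched as GAAA, any 2 bases and GAAA, the GAS as TTC, any 3 bases and GAA, and the kB site by its usual degenerate pattern, each on both strands of windows from 250 bases before to 50 bases after a start. In Isg15 the capitals join 3 overlapping ISRE matches that begin 78, 72 and 66 bases before the start. Of the 37 counted genes, 31 had a promoter in the table, and 18 of these 31 held an ISRE match, against 3.99% of 27025 genes. GTPase genes held it in 7 of 8 cases, and the 3 peptide-processing genes Tap1, Psmb8 and Psmb9 in none. A GAS match stood in 8 of the 31 against 9.55% of genes, and a kB match in 5 of the 31 against 5.14%. These are matches of letters and say nothing of binding in these cells.

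The 4 libraries held 6998 and 9174 cells of TNF- and TNF+ lung and 6200 and 3152 cells of TNF- and TNF+ synovium after filtering, with median depths of 7137, 8403, 12492 and 8728.5 UMIs per cell. No pair of libraries shared more than 16 cell barcodes. Cells were clustered without the genes described here and without the other interferon pathway genes, and clusters were named from marker genes. In synovium 11.7% of TNF- and 16.6% of TNF+ cells stayed unnamed. The TNF+ synovium library had 17.6% of barcodes over the mitochondrial limit, against 1.41% to 3.78% in the other 3. Mouse Tnf had 35.2 and 113 CPM in TNF- and TNF+ lung and 16.8 and 75.1 CPM in synovium. The human transgene is not counted.

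In whole lung the summed level of the 37 genes was lower in the TNF+ library, and in whole synovium it was nearly equal. The lung sum was 2009 CPM in TNF- and 1395 CPM in TNF+ cells, a log2 ratio of -0.53 (-0.54 to -0.51). In lung 17 of the 37 genes were at least 2-fold lower, against 25.5% of all genes with at least 20 UMIs, and 0 were at least 2-fold higher, against 5.79% of all genes. The median log2 ratio of the 37 was -0.97 against -0.32 over all genes. With median-of-ratios scaling the lung sum had a ratio of -0.21 and 9 genes were lower. The share of all genes was not computed under that scaling. The synovial sum was 1789.6 CPM in TNF- and 1815 CPM in TNF+ cells, a log2 ratio of 0.02 (0.01 to 0.03). In synovium 5 genes were at least 2-fold higher, against 11.8% of all genes, and 3 at least 2-fold lower, against 21.9%. In whole-tissue sums alone a change in the share of a cell type and a change in RNA per cell cannot be told apart. The shares of cell classes differed between libraries. Endothelium was 32.7% of TNF- and 4.29% of TNF+ lung cells, and myeloid cells were 15.6% and 54.5%. In synovium mesenchyme was 52.6% and 16.3% of cells, and myeloid cells were 9.95% and 35.1%. The part of these shares in the whole-tissue values here and below was not tested.

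Isg15, a ubiquitin-like protein that is conjugated to other proteins, was lower in TNF+ lung and higher in TNF+ synovium. Its level was 59.4 and 26.9 CPM in lung and 75.7 and 174 CPM in synovium (TNF- first here and below), log2 ratios of -1.14 and 1.1998. Usp18, the protease that removes Isg15 and damps type I interferon signalling, was lower in both tissues, with 17.2 and 9.17 CPM in lung and 12.007 and 5.48 CPM in synovium.

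Among the antiviral effectors, Bst2 (tetherin), which holds budding virus at the membrane, had 190.0 and 109 CPM in lung. In synovium Bst2 was at 99.6 and 164 CPM. Trim30a, a tripartite-motif protein, was at 92.0 and 86.2 CPM in lung and at 41.0 and 30.8 CPM in synovium. Parp14, an ADP-ribosyltransferase, was at 83.2 and 77.8 CPM in lung and at 72.0 and 88.9 CPM in synovium. Of the 14 effectors counted, 10 were at least 2-fold lower in TNF+ lung, against 25.5% of all genes. In synovium 2 were higher, against 11.8% of all genes, and 2 lower, against 21.9%. The synovial pair that was higher was Ifi44 (2.01 and 5.27 CPM) and the oligoadenylate synthetase-like Oasl1 (7.49 and 19.9 CPM); both were at least 2-fold lower in lung, with log2 ratios of -2.09 and -1.38.

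The cytosolic sensors of viral nucleic acid summed to 124.9 and 120.2 CPM in lung and to 89.8 and 59.2 CPM in synovium, log2 ratios of -0.06 and -0.60. Ifih1 (MDA5), a sensor of long double-stranded RNA, was at 36.6 and 33.8 CPM in TNF- and TNF+ lung and at 48.9 and 29.3 CPM in synovium. Ddx58 (RIG-I) was at 56.8 and 40.6 CPM in lung and at 27.5 and 18.9 CPM in synovium. Zbp1, a sensor of Z-form nucleic acid that can trigger cell death, was the sensor that was higher in TNF+ lung, at 31.6 and 45.8 CPM, and it was at 13.4 and 11.0 CPM in synovium. None of the 3 passed 2-fold in either whole tissue.

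Of the 4 transcription factors, Irf1, Stat2 and Irf9 were lower in both TNF+ tissues. Irf7, which amplifies type I interferon production, was at 34.6 and 26.2 CPM in lung and at 19.2 and 23.1 CPM in synovium, where it was higher (0.27, 0.14 to 0.40). Irf1, a GAS target that itself drives many of these genes, was at 189.7 and 109.8 CPM in lung and at 287 and 157 CPM in synovium, log2 ratios of -0.79 and -0.87. Stat2 was at 59.98 and 29.3 CPM in lung and at 65.7 and 33.2 CPM in synovium, log2 ratios of -1.04 and -0.98. Irf9, its partner on the ISRE, was at 50.8 and 38.8 CPM in lung and at 39.4 and 26.1 CPM in synovium.

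GTPases of the guanylate-binding and immunity-related families, which coat and break vacuoles that hold pathogens, were lower in TNF+ lung. There 5 of 9 were at least 2-fold lower, against 25.5% of all genes. Iigp1 (Irga6) was at 56.9 and 12.6 CPM in lung, a log2 ratio of -2.17, and at 302 and 259 CPM in synovium, a log2 ratio of -0.22. Irgm1, a regulator of the other immunity-related GTPases, was at 41.0 and 22.4 CPM in lung and at 82.0 and 67.8 CPM in synovium. Gbp2 was at 56.5 and 24.6 CPM in lung and at 51.9 and 63.5 CPM in synovium. The peptide-processing genes differed from each other in lung, where Psmb8 was higher and Tap1 and Psmb9 were lower. The immunoproteasome subunit Psmb8 was at 221 and 279.7 CPM in lung and at 97.5 and 172 CPM in synovium. Psmb9, another such subunit, was at 119 and 113 CPM in lung and at 32.8 and 37.9 CPM in synovium, and the peptide transporter Tap1 at 76.8 and 59.5 CPM and at 27.0 and 23.5 CPM. Tap1, Psmb8 and Psmb9 lie side by side within chr17:34181987-34201454.

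The cell classes differed among themselves. Myeloid cells of both tissues had lower levels in TNF+ libraries, lung epithelium and mesenchyme had higher CPM, and synovial endothelium held the highest level of any class in both genotypes.

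**Figure D1:**
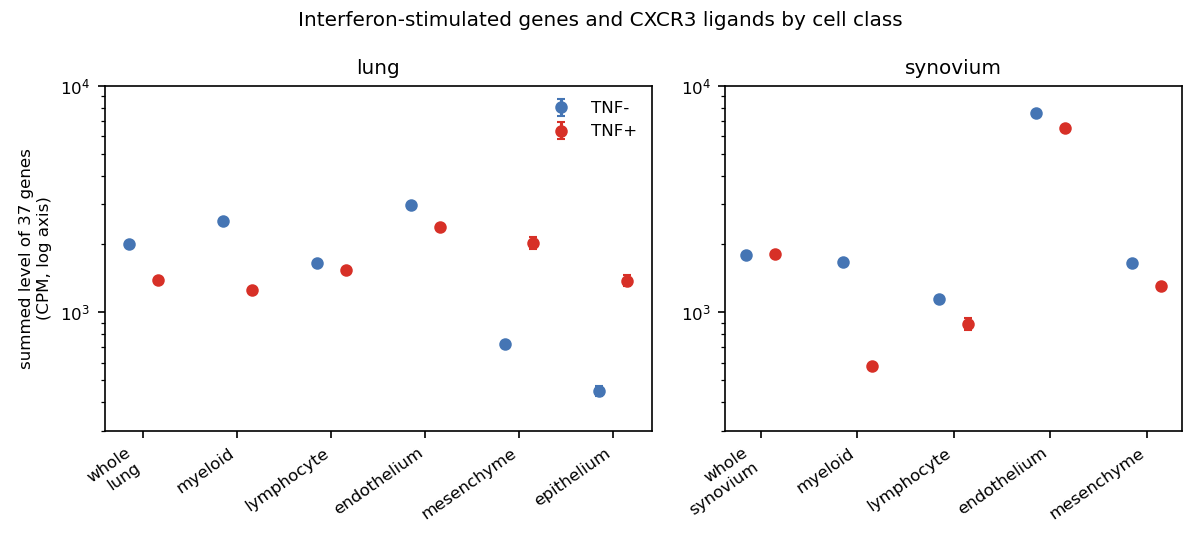
Summed level of the 37 genes (CPM, log axis) in whole tissues and in each cell class of lung and synovium; points are single libraries, TNF- in blue and TNF+ in red, and bars are exact 95% Poisson intervals. Synovial endothelium is highest at 7635 and 6547 CPM, myeloid cells are lower in TNF+ in both tissues, and lung mesenchyme and epithelium are higher in TNF+.

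Synovial myeloid cells showed the lowest ratio of any class. The summed level was 1666 CPM in 617 TNF- cells and 579.7 CPM in 1106 TNF+ cells, a log2 ratio of -1.52 (-1.56 to -1.49). Of 36 genes with at least 20 UMIs, 32 were at least 2-fold lower, against 20.4% of all genes, and 0 were higher, against 9.13%. The lowest were Ifit2, which binds viral RNA and blocks its translation, at 10.8 and 0.315 CPM (log2 ratio -5.09, -6.74 to -3.83), Cxcl9 at 47.9 and 2.02 CPM (-4.57, -5.13 to -4.05) and Oas3, which makes the signal that activates RNase L, at 13.8 and 1.13 CPM (-3.61, -4.41 to -2.90). At the other end stood Oasl1 at 21.1 and 28.4 CPM, Isg15 at 64.7 and 52.4 CPM, and Bst2 at 144 and 87.0 CPM.

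Most of the TNF+ synovial myeloid cells, 753 of 1106, lay in a macrophage cluster led by Cxcl3, Cxcl2, Trem2 and Spp1 that held 8 TNF- cells and whose summed level was 517 CPM. So the class compares partly different cells. Within single clusters that had at least 20 cells of each library the direction was the same in 4 of 4. In the cluster led by Cd300e, Treml4 and Adgre4, with 135 TNF- and 212 TNF+ cells, the sum was 1621 and 435 CPM, a log2 ratio of -1.90 (-2.02 to -1.78), and 26 of 26 genes were at least 2-fold lower, against 10.6% of all genes in the cluster. The Cd209a and Mgl2 dendritic cluster had a ratio of -0.57 with 20 of 36 genes lower against 16.4%, and the macrophage cluster led by Ccl12 and Lyve1 a ratio of -0.13 (-0.29 to 0.02). A neutrophil cluster of 27 TNF- and 23 TNF+ cells had the lowest ratio, -3.00 (-3.66 to -2.40), on 382 and 24 UMIs. Median depth in the Cd300e cluster was 13248 UMIs in TNF- and 6437 in TNF+ cells. When every synovial myeloid cell was thinned to 1000 UMIs, 68.3% of TNF- cells (64.5 to 72.0) and 35.8% of TNF+ cells (32.9 to 38.7) held a UMI of the 37 genes, against 98.7% and 92.9% unthinned. No cell type here is known to lack these genes. Other low thinned shares were 38.8% in epithelium of TNF+ synovium and 41.2% in muscle of TNF- synovium.

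Lung myeloid cells were lower as well. The sum was 2546 CPM in 1091 TNF- cells and 1249.7 CPM in 4999 TNF+ cells, a log2 ratio of -1.03 (-1.05 to -1.01), with 24 of 37 genes at least 2-fold lower against 16.4% of all genes and 0 higher against 4.09%. Oasl1 was at 26.0 and 2.66 CPM (-3.29, -3.60 to -2.98), Rsad2 (viperin), which makes a chain-terminating nucleotide, at 49.9 and 5.99 CPM (-3.06, -3.27 to -2.85), and Cxcl9 at 37.1 and 5.40 CPM (-2.78, -3.01 to -2.55). The ratios nearest 0 were those of Parp14 (-0.22), Psmb8 (-0.23) and Ifih1 (-0.37).

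The class compares largely different cells, since 2730 of the 4999 TNF+ cells, but 38 of the TNF- cells, lay in a monocyte cluster led by Cd300e and Treml4. In that cluster the sum was 1828 and 943 CPM (-0.95, -1.07 to -0.84), with 21 of 36 genes at least 2-fold lower against 25.6% of all genes. The lung clusters did not all go one way. Of 8 myeloid clusters with at least 20 cells of each library, 5 had a lower sum in TNF+ and 3 a higher one, and their equally weighted mean ratio was -0.36. Without any filter on cells the ratio of the whole class was also -0.36, with 14 genes lower. The share of all genes was not computed without the filter. Monocytes led by F13a1, Vcan and Ccr2 (122 and 429 cells) had 4708 CPM in TNF- and 1426 CPM in TNF+, a ratio of -1.72 (-1.76 to -1.68), with 32 of 36 genes at least 2-fold lower against 8.05% of all genes. In these monocytes Isg15 was at 284 and 37.4 CPM, Rsad2 at 81.3 and 4.10 CPM and Cxcl10 at 354 and 26.5 CPM, at median depths of 15154 and 16723 UMIs. Neutrophils (303 and 178 cells) had 4051 and 2377 CPM, a ratio of -0.77, with 15 of 34 genes lower against 11.6% and 0 higher against 5.64%. In the macrophage cluster rich in C1qa, C1qb and C1qc (63 and 235 cells) the order was turned, at 1617 and 2170.4 CPM, a ratio of 0.42 (0.34 to 0.51), with 9 of 34 genes higher against 8.25% and 2 lower against 8.54%. The Ear1 and Fabp1 macrophage cluster was at 662 and 729 CPM (0.14, with an interval that includes 0).

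**Figure D2:**
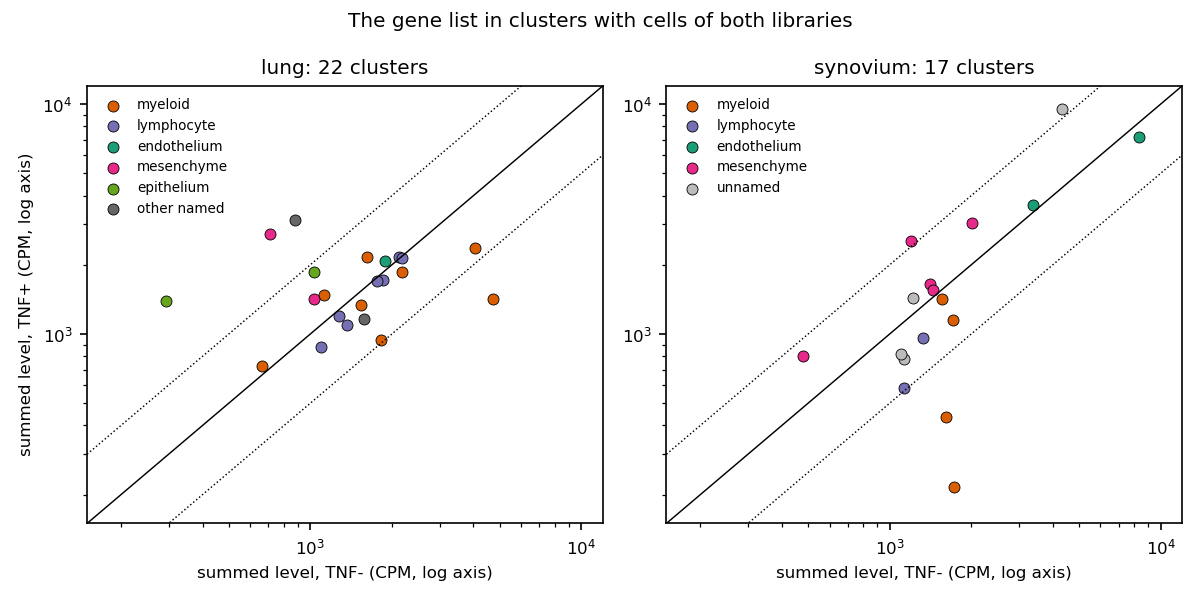
Summed level of the 37 genes (CPM, log axes) in TNF+ against TNF- cells, 1 point per cluster with at least 20 cells of each library (22 lung and 17 synovial clusters), coloured by cell class; the solid line marks equal levels and dotted lines 2-fold differences. The 4 synovial myeloid clusters lie below the line, the lung myeloid clusters on both sides, and the unnamed synovial cluster at the top right above 2-fold.

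Lung epithelium and mesenchyme had the largest ratios in the upward direction. The epithelial sum was 450.3 CPM in 356 TNF- cells and 1380.0 CPM in 157 TNF+ cells (1.62, 1.51 to 1.72), and 24 of 29 genes were at least 2-fold higher against 11.8% of all genes, with 0 lower against 7.08%. The mesenchymal sum was 722 CPM in 562 TNF- cells and 2024 CPM in 214 TNF+ cells (1.49, 1.39 to 1.58), with 19 of 31 genes higher against 9.58% and 0 lower against 9.13%. Cxcl10 led both. It had 2 UMIs in TNF- and 78 in TNF+ epithelium, a log2 ratio of 7.14 (5.24 to 10.21), and 3 and 60 UMIs in mesenchyme, a ratio of 7.10 (5.49 to 9.42). Next in epithelium came Iigp1 at 4.81 and 57.3 CPM (3.58) and Gbp7 at 2.55 and 22.5 CPM (3.15), and in mesenchyme Trim30a at 7.67 and 95.1 CPM (3.63) and Gbp5, a scaffold for inflammasomes, at 6.18 and 62.9 CPM (3.35). The smallest epithelial ratios were those of Stat2 (0.23), Irf9 (0.40) and Ifit2 (0.46), and the smallest mesenchymal ones those of Ifit2 (-0.53), Gbp2 (-0.22) and Gbp7 (0.02), all with intervals that include 0.

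Depth moved with these results. Median depth was 8623 UMIs in TNF- and 2508 in TNF+ epithelium, and 6488.5 and 790.0 UMIs in mesenchyme. Counted per cell, the mesenchymal genes were at 5.196 UMIs in TNF- and 5.57 in TNF+ cells, while the epithelial ones were at 4.47 and 8.59 UMIs. Macrophage and monocyte markers (25 of 26 detected in TNF+) summed to 2713 and 5440.4 CPM in mesenchyme. In epithelium, with 24 of 26 detected in each library, they summed to 15344 and 15338 CPM. The make-up of the epithelial sums was not examined, so they do not show equal macrophage RNA in both libraries. T cell markers summed to 55.2 and 218 CPM in epithelium and to 45.3 and 134 CPM in mesenchyme, and the fibroblast markers of mesenchyme to 21873 and 8725 CPM. With each cell weighted equally the epithelial ratio was 0.58 with 11 genes higher and 4 lower. Without a filter on cells the mesenchymal ratio was 0.61 with 8 higher. The shares of all genes were not computed under these settings. The part of depth and of other cells' RNA in the class ratios was not tested. Single clusters of deeper cells are given next, and between their libraries depth differed as well. Alveolar type 2-like cells, marked by the surfactant genes Sftpb and Sftpc (172 TNF- and 59 TNF+ cells, median 17195 and 11212 UMIs), had 293 and 1387 CPM (2.24, 2.11 to 2.37), and 23 of 25 genes were at least 2-fold higher against 14.1% of all genes. In this cluster Cxcl10 had 1 UMI in TNF- and 76 in TNF+ cells, Iigp1 3 and 52, and Gbp7 3 and 16. Macrophage and monocyte markers summed to 19209 CPM in TNF- and 13618 CPM in TNF+ cells of that cluster, and T cell markers to 17.8 and 108 CPM. Of the 26 macrophage and monocyte markers, 21 were detected in TNF- and 23 in TNF+ cells. Fcgr1, Trem2, Marco, Siglecf and Ms4a7 had 0 UMIs in TNF- cells, and Vcan, Cd163 and Folr2 in TNF+ cells. Which markers made up these sums was not examined, so the sums do not measure macrophage RNA alone. A fibroblast cluster led by C7, Abca8a and Pdgfra (144 and 22 cells, median 13271.5 and 10273.5 UMIs) had 710.4 and 2721.5 CPM (1.94, 1.80 to 2.08), with 17 of 27 genes higher against 12.1% and 1 lower against 12.8%. Its macrophage markers summed to 3458 and 2839.8 CPM, and its fibroblast markers to 35001 and 16000.3 CPM. Thinned to 1000 UMIs, the mean number of UMIs of the 37 genes was 0.61 in TNF- and 1 in TNF+ epithelium, and 0.67 and 2.18 in mesenchyme, over the 118 and 77 TNF+ cells that were deep enough, with 39 and 137 left out.

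**Figure D3:**
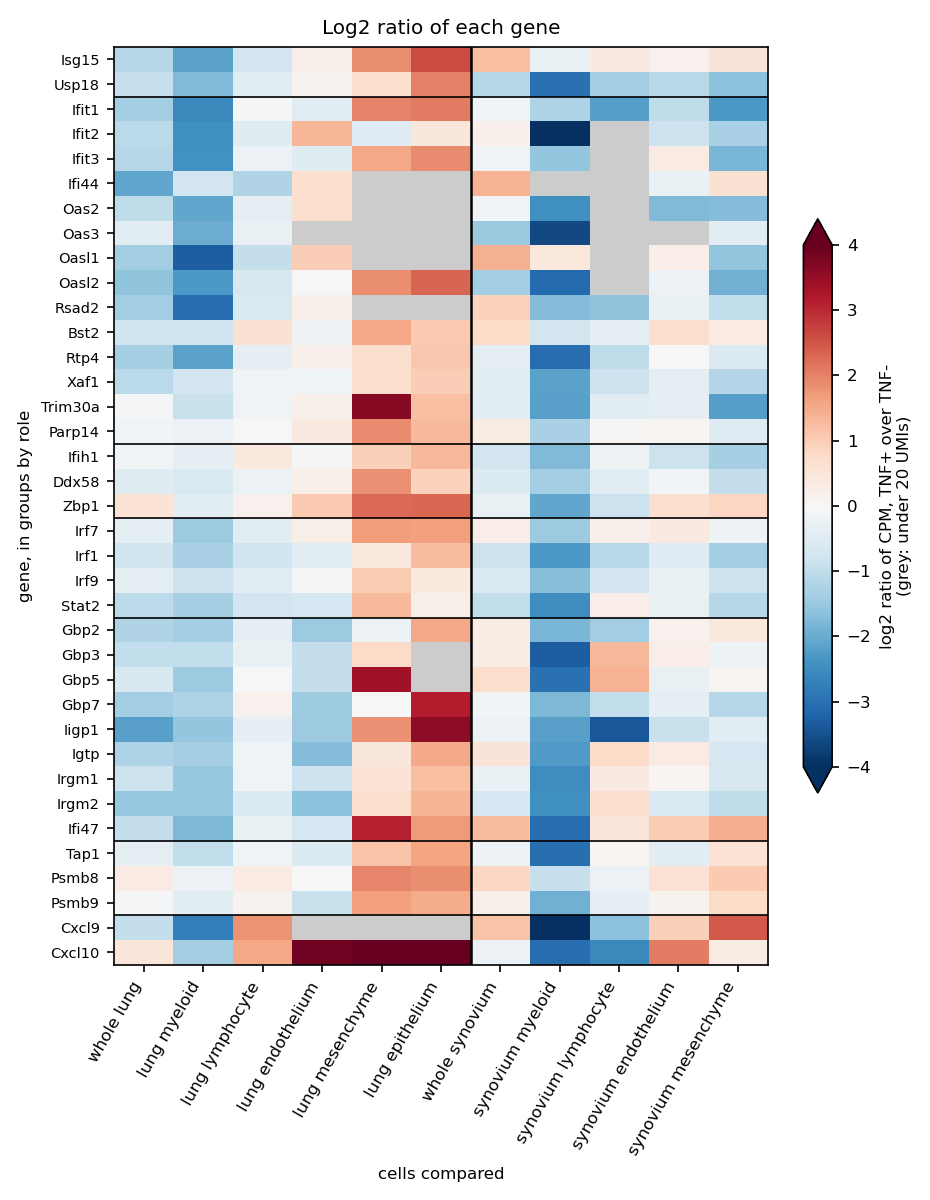
Log2 ratio of CPM, TNF+ over TNF-, of each of the 37 genes (rows, grouped by role) in whole tissues and cell classes (columns); red is higher and blue lower in TNF+, colours end at 4 in either direction, and grey marks under 20 UMIs. The myeloid columns are blue almost throughout, the lung mesenchyme and epithelium columns red, and Cxcl10 is red in 4 lung classes and in synovial endothelium.

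Among the named classes, synovial endothelium held the genes at their highest level in both genotypes, and the level was similar between them. The class leaves out an endothelial-type cluster that stayed unnamed, described next, in which the sum was higher in TNF+. The sum was 7635 CPM in 633 TNF- cells and 6547 CPM in 390 TNF+ cells (-0.22, -0.25 to -0.19), against 2969 and 2379.8 CPM in lung endothelium. Of 36 genes, 2 were at least 2-fold higher, against 6.92% of all genes, and 3 lower, against 10.1%. Taken by cell type, 23 of the 37 genes had their highest level among TNF- synovial types in endothelium, and 26 did in TNF+. Types ranked numbered 10 in TNF- and 8 in TNF+ synovium, and the share of all genes highest in endothelium was not computed. Iigp1 alone gave 2504 and 1345 CPM in these cells, a ratio of -0.90 (-0.95 to -0.84), and Isg15 584 and 662 CPM. Cxcl10 (52.9 and 217 CPM, 2.04), Ifi47, an immunity-related GTPase (39.6 and 80.2 CPM, 1.02), and Cxcl9 (165 and 319 CPM, 0.95) had the highest ratios. Oas2 (32.2 and 9.57 CPM, -1.75), Usp18 (44.5 and 20.5 CPM, -1.12) and Ifit1, a sensor of RNA without a host cap (296 and 147 CPM, -1.01), had the lowest. Without Iigp1 the summed ratio was 0.0197.

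An endothelial-type cluster that was left unnamed, because genes listed for another class were more frequent among its 10 leading genes, had a different pattern. It was led by Cytl1, Gja5, Gja4 and Sema3g, genes known from arterial endothelium, and 17 of 20 endothelial markers were raised in it. In 82 TNF- and 142 TNF+ cells of this cluster the sum was 4328 and 9570.1 CPM (1.14, 1.08 to 1.21), and 22 of 36 genes were at least 2-fold higher against 10.8% of all genes, with 0 lower against 9.75%. Isg15 was at 289.9 and 1131 CPM there, Gbp2 at 69.3 and 473 CPM, and Cxcl10 had 0 UMIs in TNF- and 232 in TNF+ cells. Endothelial markers summed to nearly the same level in both libraries of the cluster, 9652 and 9645 CPM, while fibroblast markers summed to 2586 and 261 CPM, and the part of the latter was not tested. The main capillary cluster of synovium, led by Timp4, Aqp1 and Gpihbp1 (537 and 273 cells), was at 8307 and 7234 CPM (-0.20, -0.23 to -0.17).

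In lung endothelium the ratio of the sum was -0.32 (-0.37 to -0.27), with 3 of 35 genes at least 2-fold higher against 10.1% of all genes and 5 lower against 8.78%. The GTPases Igtp (66.4 and 19.98 CPM, -1.73), Irgm2 (77.4 and 24.6 CPM, -1.65) and Iigp1 (159 and 57.9 CPM, -1.46) were lowest, with Gbp2 next at 113 and 41.3 CPM. Cxcl10 (18 and 29 UMIs, 3.91), Ifit2 (11.5 and 28.6 CPM, 1.32) and Zbp1 (13.9 and 28.6 CPM, 1.04) were highest, though Cxcl10 turned to -0.48 without a filter on cells. Igtp and Irgm2 overlap on the same strand, so reads that fall in both could have been counted for either or neither. The 394 TNF+ cells had a median of 783.5 UMIs against 5569.5 in the 2290 TNF- cells. The 1 cluster with 20 cells of each library gave 1880.0 and 2085 CPM (0.15, 0.02 to 0.28).

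Synovial mesenchyme, the fibroblasts and mural cells, had 1646 CPM in 3263 TNF- and 1313 CPM in 515 TNF+ cells (-0.33, -0.36 to -0.29). There 3 of 37 genes were at least 2-fold higher, against 9.8% of all genes, and 14 lower, against 21.8%. Cxcl9 (19.2 and 106 CPM, 2.47), Ifi47 (9.37 and 25.9 CPM, 1.47) and Psmb8 (49.0 and 102 CPM, 1.06) were highest, and Ifit1 (39.6 and 8.01 CPM, -2.31), Trim30a (32.9 and 7.16 CPM, -2.20) and Oasl2 (34.5 and 9.03 CPM, -1.93) lowest. A fibroblast cluster led by Mmp13, Saa3 and Cxcl5 held 232 of the TNF+ and 2 of the TNF- cells, at 1107 CPM in TNF+. Within all 5 clusters that both libraries filled, the sum was higher in TNF+, by 0.10 to 1.07 with a mean of 0.55, so the direction for the whole class was opposite to that inside its clusters. The Cxcl14 and Smoc2 fibroblasts (1319 and 55 cells) were at 2006 and 3043 CPM (0.60, 0.52 to 0.69), and pericyte-like mural cells (235 and 41 cells) at 1201 and 2528 CPM (1.07, 0.92 to 1.22). Median depth in the Cxcl14 fibroblasts was 15108 UMIs in TNF- and 6824 in TNF+ cells.

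Lymphocytes differed least in lung. Their sum was 1645 CPM in 2456 TNF- and 1532 CPM in 3212 TNF+ cells (-0.10, -0.12 to -0.08), with 2 of 37 genes at least 2-fold higher against 6.24% of all genes and 1 lower against 10.1%. The 2 were Cxcl9 (0.377 and 1.32 CPM, 1.81) and Cxcl10 (4.66 and 13.7 CPM, 1.56), followed by Bst2 (68.2 and 103 CPM, 0.60). Macrophage and monocyte markers, 26 of 26 detected, summed to 626 and 2006 CPM in these lymphocytes, and their part in the chemokine ratios was not tested. B cells lay in different clusters by library, 1 with 82 TNF- and 1320 TNF+ cells and 1 with 1182 and 89. Of all 36 lung clusters, 15 held over 90% of cells from 1 library. Ifi44 (0.847 and 0.367 CPM, -1.21), Oasl1 (12.9 and 6.67 CPM, -0.95) and Irf1 (230.1 and 132 CPM, -0.80) were lowest. In synovial lymphocytes the sum was 1142 CPM in 335 TNF- and 886 CPM in 183 TNF+ cells (-0.37, -0.46 to -0.27), with 2 of 30 genes higher against 7.79% and 9 lower against 13.2%. Gbp5 (5.17 and 13.6 CPM, 1.39), Gbp3 (6.16 and 15.3 CPM, 1.31) and Igtp (18.97 and 32.2 CPM, 0.77) were highest. Iigp1 (44.6 and 4.24 CPM, -3.39) and Cxcl10 (70.9 and 11.9 CPM, -2.58) were lowest, and Ifit1 had 48 UMIs in TNF- and 0 in TNF+ cells, at least 4.65-fold lower against a floor of 3 UMIs for the library. Fibroblast markers summed to 2032 CPM in TNF- and 264.7 CPM in TNF+ synovial lymphocytes, and their part in these ratios was not tested.

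The CXCR3 ligands were lower in TNF+ myeloid cells and higher in several other classes. Cxcl9 and Cxcl10 are neighbours on chromosome 5 (chr5:92321347-92328079 and chr5:92346638-92348889), and Cxcl9 answers mainly to interferon-gamma while Cxcl10 also answers to type I interferon and TNF. In whole synovium Cxcl9 was at 25.8 and 56.8 CPM (1.14, 1.05 to 1.23) and Cxcl10 at 66.7 and 56.2 CPM (-0.25, -0.33 to -0.17). Myeloid Cxcl9 was 47.9 CPM in TNF- and 2.02 CPM in TNF+, whereas mesenchymal Cxcl9 was 19.2 and 106 CPM and endothelial Cxcl9 165 and 319 CPM. Myeloid Cxcl10 was 109 and 13.1 CPM (-3.06), whereas endothelial Cxcl10 was 52.9 and 217 CPM and mesenchymal Cxcl10 69.7 and 85.2 CPM. In whole lung Cxcl9 was at 7.62 and 3.90 CPM (-0.97) and Cxcl10 at 19.8 and 27.5 CPM (0.48). Lung myeloid cells had 90.4 and 34.7 CPM of Cxcl10 (-1.38), and each of the other 4 lung classes had more of it in TNF+.

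**Figure D4:**
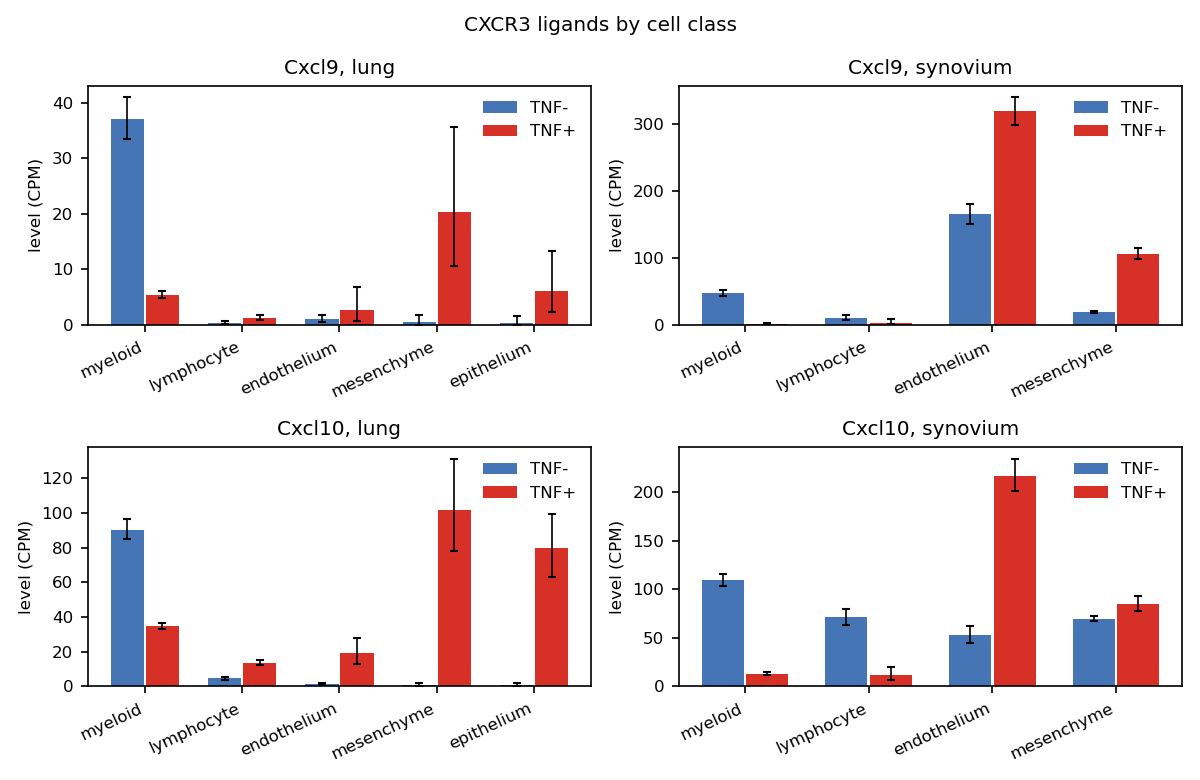
Level (CPM, axis from 0) of Cxcl9 and Cxcl10 in the cell classes of lung and synovium, TNF- in blue and TNF+ in red, with exact 95% Poisson intervals as bars. Both chemokines are lower in TNF+ myeloid cells of both tissues, and in synovium both are highest in TNF+ endothelium, at 319 and 217 CPM.

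The pathway that leads to these genes was read from separate lists. Of 21 interferon genes listed, 2 reached 20 UMIs in each whole tissue. Ifng, made by T and NK cells, was at 27.0 and 27.1 CPM in TNF- and TNF+ lung lymphocytes and at 35.7 and 37.3 CPM in synovial lymphocytes. Ifnb1 had 17 UMIs in TNF- and 4 in TNF+ synovial myeloid cells, and 1 in each lung library. It was therefore not among the 2 in lung. In synovial myeloid cells the receptor gene Ifnar1 had 51.8 and 74.1 CPM, Ifnar2 145.8 and 159.6 CPM, and Ifngr1, which was lower, 212 and 169 CPM. In lung myeloid cells Ifnar1 had 55.4 and 77.6 CPM, Ifnar2 173 and 200.1 CPM, and Ifngr1 445 and 677 CPM. Whole lung had Ifngr1 at 246 and 508 CPM, and 3 of 7 receptor genes there were at least 2-fold higher against 5.79% of all genes. Signal transducers of synovial myeloid cells had 11 of 20 genes at least 2-fold lower against 20.4% of all genes and 1 higher against 9.13%, and further interferon targets had 28 of 49 lower and 1 higher, a median of -1.23 against -0.15 for all genes. In lung myeloid cells 14 of 50 further targets were lower against 16.4% and 1 higher against 4.09%. In lung mesenchyme 26 of 42 were higher against 9.58%, and in lung epithelium 19 of 38 against 11.8%.

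Feedback genes varied by class. Socs1, an inhibitor of Jak kinases induced by interferon, was at 34.2 and 9.92 CPM in lung myeloid cells (-1.78) and at 12.7 and 21.1 CPM in synovial myeloid cells (0.73). Nlrc5, the transactivator of MHC class I genes, was at 54.5 and 26.9 CPM in lung and at 37.8 and 8.70 CPM in synovial myeloid cells (-1.02 and -2.12). Cd274 (PD-L1), an interferon target that inhibits T cells, was higher in both whole tissues, at 76.7 and 243 CPM in lung and 25.6 and 131 CPM in synovium. The other further targets with the largest ratios were Ly6a (579.8 and 137 CPM), Slfn5 (137 and 38.3 CPM) and Tgtp2 (11.1 and 3.72 CPM) in lung, all lower, and in synovium Slfn2 (79.2 and 422 CPM) and Ifitm1 (9.24 and 47.2 CPM), both higher, and Ifi211 (209 and 52.4 CPM), which was lower.

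Several of the genes have near copies whose reads could be split between them. Ifit3b had 486 UMIs beside 1260 of Ifit3 in TNF- lung and 106 beside 511 in TNF+ synovium, and Trim30d had 1792 beside 4947 of Trim30a in TNF- lung. Levels of Ifit1, Ifit3, Trim30a, Iigp1, Igtp, Gbp2, Gbp7 and Oasl1 are therefore uncertain to that extent. Besides Igtp and Irgm2, Ifi47, Irf9 and Rtp4 overlap a counted gene on the same strand (Olfr56, Rnf31 and Gm45338 in turn).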

How the data were processed

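The authors made the deposited count files with Cell Ranger 7.0.1 on mm10, per the labels: raw UMI counts per gene and cell from a droplet 3′ kit, pooled mice, 1 library per group; barcode and gene lists were deposited beside them. Cells with 200 to 5000 genes and at most 20% mitochondrial UMIs were kept. Each tissue's libraries were clustered together, without batch correction (scanpy 1.11.5, 2000 variable genes, 30 components, 20 neighbours, leidenalg 0.10.2 at 0.8). A cluster was named where at least 5 markers of a type were 2-fold over the other cells. Doublets were not removed in the main values. For each library, UMIs of a class (50 cells or more on both sides) were summed and scaled to CPM. No p-values were computed. Intervals are exact Poisson, exact binomial or, for ratios, conditional binomial, at 95%, and cover counting error only. A gene was counted as different at 2-fold or more with at least 20 UMIs. The interval script was tested on simulated counts. Positions come from GENCODE vM21 (GRCm38).

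Genes written out were the 3 of each role with the most UMIs, both CXCR3 ligands, the 3 highest and 3 lowest ratios of each class, named pathway genes, and up to 4 further targets per tissue with the largest ratios among those with at least 100 UMIs. Single genes within clusters, and Ifi44 and Oasl1 in whole tissues, were chosen after their values were seen. The genes, lists, markers and thresholds were chosen with earlier results of these data known. Alternatives were other cell filters, scalings, clusterings, UMI minimums and the removal of doublets; per-cell counts and means within clusters were added after seeing the data. 1 gene of the pathway lists is not reported here by name.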

Additional observations from a re-analysis of the deposited data

Results flagged for a closer look

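Some values had opposite directions in groups compared in the same way; with 1 library per group none of these differences was tested. Between whole tissues, 3 genes were at least 2-fold lower in TNF+ lung and at least 2-fold higher in TNF+ synovium. They were Isg15 (log2 ratios of -1.14 and 1.1998), Ifi44 (-2.09 and 1.39) and Oasl1 (-1.38 and 1.41). Taken singly, 25.5% of all genes were at least 2-fold lower in whole lung and 11.8% at least 2-fold higher in whole synovium. The share of all genes with both was not computed, so the count of 3 has no background to be read against. Within named synovial classes holding at least 20 UMIs of the gene, none of the 3 was 2-fold higher. Class ratios there ran from -0.30 to 0.53 for Isg15, -0.27 to 0.60 for Ifi44 and -1.57 to 0.43 for Oasl1. Lung classes with as many UMIs went both ways, from -2.13 to 2.61, -1.21 to 0.68 and -3.29 to 0.98 in the same order. The unnamed endothelial-type cluster of synovium is outside the named classes, and Isg15 was higher in its TNF+ cells, as given above. The part of cell shares in the whole-tissue ratios was not tested.

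Between classes of lung, the summed ratio was -1.03 in myeloid cells, 1.49 in mesenchyme and 1.62 in epithelium. In lung 20 genes, and in synovium 5, were at least 2-fold higher in one class and at least 2-fold lower in another. The share of all genes with this pattern was not computed, so these counts have no background to be read against. Cxcl9 was one of the 20 and of the 5. It was at -2.78 in lung myeloid cells and 1.81 in lung lymphocytes. In synovium Cxcl9 was at -4.57 in myeloid cells, -1.64 in lymphocytes and 2.47 in mesenchyme. Cxcl10 was another, at -1.38 in lung myeloid cells against 1.56 in lymphocytes, 3.91 in endothelium, 7.10 in mesenchyme and 7.14 in epithelium of lung. In synovium Cxcl10 was at -3.06 in myeloid cells and -2.58 in lymphocytes against 2.04 in endothelium.

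Outside the named classes, synovium had 6 unnamed clusters. Among them, the cluster led by Cytl1 and Gja5 had a summed ratio of 1.14, above its level in the TNF- library. Only unnamed clusters with a sum at least 2-fold higher in TNF+ were flagged, so the others are not described.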

How the results depend on the processing

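No paired analysis was possible because each group had 1 library. All values rest on 1 pool of mice a group, and intervals cover counting error alone. Shares of all genes past 2-fold were computed for the main setting only, so counts under other settings have no such share. The log2 ratios of the sums, and the counts of genes past 2-fold, that moved beyond their interval or by over 1.5 times are given by setting, and the cause was not tested. Without a filter on cells, the sum was -0.36 in lung as a whole, -0.11 in synovium as a whole, -0.36 in lung myeloid, -0.044 in lung lymphocyte, -0.22 in lung endothelium, 0.61 in lung mesenchyme, 1.24 in lung epithelium, -1.42 in synovium myeloid, -0.37 in synovium endothelium and -0.65 in synovium mesenchyme; genes higher numbered 3 in synovium as a whole, 0 in lung endothelium, 8 in lung mesenchyme, 1 in synovium lymphocyte, 1 in synovium endothelium and 6 in synovium mesenchyme; genes lower numbered 5 in synovium as a whole, 14 in lung myeloid, 2 in lung lymphocyte, 1 in lung mesenchyme, 1 in lung epithelium and 6 in synovium endothelium; the direction turned for Cxcl10 in lung endothelium (-0.48), Ifit1 in lung mesenchyme (-0.62), Ifit3 in lung mesenchyme (-0.65) and Ifit3 in lung epithelium (-0.068). With a stricter filter, the sum was -0.55 in lung as a whole, 0.035 in synovium as a whole, -1.05 in lung myeloid, 1.35 in lung mesenchyme, 1.90 in lung epithelium and -0.28 in synovium mesenchyme. With the highest Scrublet doublet scores removed, the sum was 0.0048 in synovium as a whole, 1.63 in lung mesenchyme, 1.77 in lung epithelium and -0.29 in synovium endothelium; genes higher numbered 1 in synovium endothelium; genes lower numbered 2 in lung lymphocyte and 3 in synovium lymphocyte. With median-of-ratios scaling, the sum was -0.21 in lung as a whole, 0.19 in synovium as a whole, -0.92 in lung myeloid, 0.039 in lung lymphocyte, -1.37 in synovium myeloid, -0.52 in synovium lymphocyte, -0.10 in synovium endothelium and -0.060 in synovium mesenchyme; genes higher numbered 5 in synovium mesenchyme; genes lower numbered 9 in lung as a whole. With each cell weighted equally, the sum was -0.042 in synovium as a whole, -0.036 in lung lymphocyte, -0.45 in lung endothelium, 1.25 in lung mesenchyme, 0.58 in lung epithelium, -0.33 in synovium endothelium and -0.052 in synovium mesenchyme; genes higher numbered 1 in lung as a whole, 2 in synovium as a whole, 1 in lung myeloid and 11 in lung epithelium; genes lower numbered 9 in lung endothelium, 3 in lung mesenchyme, 4 in lung epithelium and 7 in synovium mesenchyme; the direction turned for Ifit1 in lung mesenchyme (-0.55), Ifit3 in lung epithelium (-1.32), Parp14 in lung epithelium (-0.0041), Igtp in lung epithelium (-2.12) and Irgm2 in lung epithelium (-1.36). With each library clustered by itself, the sum was -0.22 in lung endothelium, -0.16 in synovium endothelium and 0.10 in synovium mesenchyme; genes higher numbered 6 in lung endothelium; genes lower numbered 0 in lung lymphocyte and 2 in synovium mesenchyme; the direction turned for Ifit2 in synovium mesenchyme (0.67), Ifit3 in synovium mesenchyme (0.40), Oas2 in synovium mesenchyme (0.96) and Oasl1 in synovium mesenchyme (0.36). With finer clusters, the sum was -1.06 in lung myeloid; genes lower numbered 0 in lung lymphocyte. Without the gene of the most UMIs, the sum was -0.68 in lung as a whole, 0.065 in synovium as a whole, -1.16 in lung myeloid, -0.21 in lung lymphocyte, -1.72 in synovium myeloid, 0.0197 in synovium endothelium and -0.16 in synovium mesenchyme. With a minimum of 100 UMIs, genes higher numbered 1 in lung lymphocyte, 10 in lung mesenchyme, 8 in lung epithelium and 0 in synovium lymphocyte; genes lower numbered 0 in lung lymphocyte and 3 in synovium lymphocyte. With UMIs per cell in place of CPM, the sum was -0.27 in lung as a whole, -0.21 in synovium as a whole, 0.13 in lung lymphocyte, -0.997 in lung endothelium, 0.10 in lung mesenchyme, 0.94 in lung epithelium, -1.71 in synovium myeloid, -1.28 in synovium lymphocyte, 0.49 in synovium endothelium and -0.69 in synovium mesenchyme; the direction turned for Irf9 in lung mesenchyme (-0.38), Stat2 in lung mesenchyme (-0.082) and Tap1 in lung mesenchyme (-0.24). As a mean over clusters, the sum was -0.36 in lung myeloid, -0.13 in lung lymphocyte, 0.15 in lung endothelium, 1.201 in lung mesenchyme, -1.40 in synovium myeloid, -0.71 in synovium lymphocyte, -0.047 in synovium endothelium and 0.55 in synovium mesenchyme; the direction turned for Gbp7 in lung myeloid (0.17), Ifit1 in synovium myeloid (0.16), Ifit1 in synovium endothelium (0.29), Usp18 in synovium mesenchyme (0.38), Ifit2 in synovium mesenchyme (0.37), Oas2 in synovium mesenchyme (0.55), Oasl1 in synovium mesenchyme (1.07), Ifih1 in synovium mesenchyme (0.16), Irf1 in synovium mesenchyme (0.0095) and Stat2 in synovium mesenchyme (0.46). Minimums of 5 UMIs or none kept all 22 counts within 1.5 times. Per-cell counts and means over clusters were added after seeing the data.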
